A study of Mus musculus with 28 samples.

Results

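The genes described here are 32 enzymes and regulators of fatty acid oxidation in mitochondria and peroxisomes, chosen by name for their role in the pathway. All 32 were among the 12315 genes of the whole kidney table, and 30 were among the 10523 genes of the kidney macrophage table, where Acaa1a and Acsm3 were not listed. RNA sequencing was done on female C57BL/6 littermates aged 7 to 9 months. WT mice were set beside germline knockouts: Rhbdf2-/- mice, which lack iRhom2, the partner that brings the sheddase ADAM17 to the cell surface; Fcgr2b-/- mice, which lack the inhibitory IgG receptor and develop lupus-like kidney disease; and Fcgr2b-/-Rhbdf2-/- mice, called double mutant here. The labels name no treatment, and a germline knockout affects all cells rather than 1 cell type. The kidney set held 16 libraries, 4 per genotype, and the macrophage set held 12, 3 per genotype, from cells sorted as CD45+ F4/80hi CD11b+ Ly6G- Ly6C-. The labels do not tie each library to its own mouse, and p-values therefore measure only how far these libraries spread, which may be technical. Each kidney genotype was sequenced on a lane of its own: the effects of lane and of genotype cannot be told apart.

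Fatty acids enter the oxidation pathway when a synthetase joins them to coenzyme A. Long chains cross into the mitochondrion as carnitine esters and are then shortened by repeated rounds of dehydrogenation, hydration, a second dehydrogenation and thiolysis, while the first electrons leave through the electron transfer flavoprotein. Peroxisomes run a parallel pathway on very long and branched chains, starting with an oxidase, and the nuclear receptor PPAR alpha with its coactivator PGC-1 alpha drives many of the genes of both. The proximal tubule of the kidney depends on this pathway for most of its energy, and macrophages use it to varying degrees.

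Levels are given in CPM, reads per gene as scaled by the authors. A difference is in log2(CPM+1) units with its standard error (SE) from limma. The CPM of a library do not add up to a common total. In kidney these totals were lower in every Fcgr2b-/- library than in every WT library. A gene is called at a limma adjusted p below 0.05, adjusted over all genes of the tissue. Kidney libraries held 29016263 to 41616763 reads in genes, and macrophage libraries 30848555 to 34869102, as worked back from the smallest steps between values. Among members in kidney the fewest reads were 36, for Acsm3, and in macrophages Ppara had 0 reads in 1 double-mutant library, a count that allows up to 3 reads, or 0.0897 CPM, for counting error only. Reads of the targeted genes remained in every genotype: in macrophages Fcgr2b lay at 539 to 715 CPM in WT, at 256 to 382 CPM in Fcgr2b-/-, and between 455 and 550 CPM in the double mutant. In kidneys its ranges overlapped, at 29.3 to 35.8 CPM in WT, 23.4 to 34.2 CPM in Fcgr2b-/- and 20.7 to 41.5 CPM in double mutants. Rhbdf2 lay at 16.2 to 25 CPM in WT and 13.4 to 15.5 CPM in Rhbdf2-/- macrophages, and at 12.9 CPM in WT and 10.8 to 12.3 CPM in Rhbdf2-/- kidneys. In double mutants it lay at 18.1 to 26.6 CPM in macrophages and 9.29 to 19.7 CPM in kidneys. In Fcgr2b-/- mice it lay at 25.2 to 43.3 CPM in macrophages and 25 to 37.1 CPM in kidneys. Which exons were deleted was not stated in these sources, and these levels do not check the labels.

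In WT kidney the 32 members together took 1.15% to 1.38% of all CPM. Per kilobase of exon the highest were Acadm at 560 CPM (SD 103), Etfb at 382 CPM (SD 9.95), Acsm2 at 359 CPM (SD 32.2), Acaa2 at 312 CPM (SD 37.8) and Ehhadh at 285 CPM (SD 65.4), n = 4. Etfb and Acsm2 lay within 1 SD of Acsm2 of each other. The lowest was Acsm3, a medium-chain synthetase relative, at 0.648 CPM per kilobase (SD 0.194). Acadm, the medium-chain dehydrogenase, was thus the most abundant message of the pathway per length in the healthy organ. The share taken by the members was between 0.655% and 0.997% in Fcgr2b-/- kidneys and 0.977% to 1.14% in double mutants, with all Fcgr2b-/- libraries below all WT libraries.

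Loss of Fcgr2b was accompanied by lower messages of most members. Of the 32 members 26 fell in Fcgr2b-/- against WT kidney and 0 rose, where 30.8% of all genes fell and 29.5% rose. The median difference of the members was -0.68, beside -0.01 for all genes tested. For 22 of the 26, every Fcgr2b-/- library lay below every WT library, which held for 26.4% of all genes. The Fcgr2b-/- mean was 14.5% of the WT mean for Acsm1 and 23.3% for Acadm, and from 46.1% (Acad11) to 82.2% (Acaa1a) for the other 24. The authors' deposited table calls 23 of these 26 lower, all but Ehhadh, Hsd17b4 and Acaa1b.

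**Figure D1:**
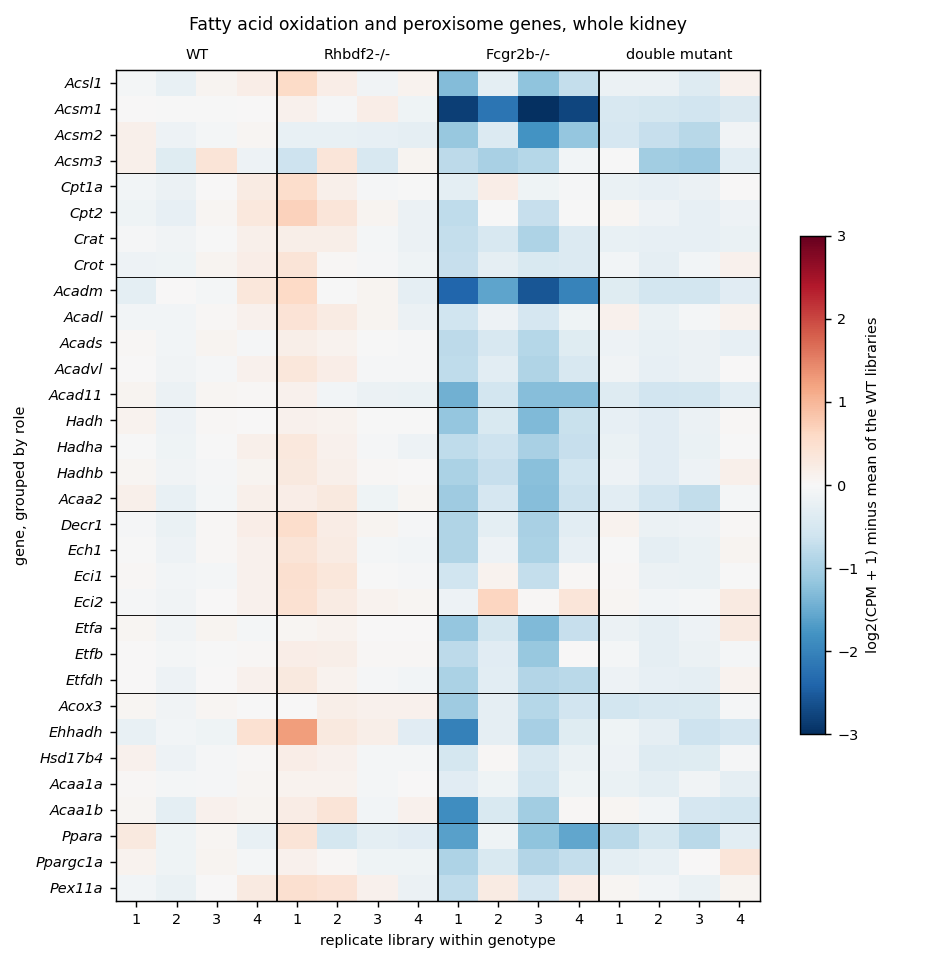
Each cell is 1 whole kidney library (columns, 4 per genotype) and 1 member gene (rows, grouped by role), coloured by log2(CPM+1) minus the mean of the WT libraries. The Fcgr2b-/- block is the darkest blue, most of all for Acsm1 and Acadm, and its replicate 2 is the palest library of that block.

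The acyl-CoA synthetases activate fatty acids. Acsm1, which acts on medium chains, had 390, 384, 384 and 393 CPM in the WT kidneys, 54, 84.5, 29.4 and 57.2 CPM in the Fcgr2b-/- kidneys and 280, 270, 261 and 287 CPM in the double mutants. The 3 sets of values do not overlap, and the double mutants lie between the others but nearer to WT. The Fcgr2b-/- against WT difference was -2.86 (SE 0.21, 7.24-fold, limma adjusted p = 1.04e-07), the largest among the members, and the double mutant against Fcgr2b-/- difference was 2.36 (SE 0.21, adjusted p = 1.57e-06). The Acsm members lie near each other on the plus strand of chromosome 7 (Acsm2 119554468 to 119600694, Acsm1 119607025 to 119662515, Acsm3 119760922 to 119787513 on GRCm38). Acsm2 had 2440 to 3000 CPM in WT and 782 to 2030 CPM in Fcgr2b-/- kidneys. That is a difference of -1.13 (SE 0.22, adjusted p = 0.000501), less than for Acsm1 only 6331 bases away. Acsm3 lay at 2.19 to 4.35 CPM in WT and 1.1 to 2.88 CPM in Fcgr2b-/- kidneys and did not pass (adjusted p = 0.0576). Acsl1, the main long-chain synthetase, had 762, 673, 839 and 915 CPM in WT, 321, 649, 341 and 484 CPM in Fcgr2b-/- and 696, 703, 606 and 870 CPM in double-mutant kidneys. It fell by 0.88 on the log2 scale (SE 0.2, adjusted p = 0.00188) in Fcgr2b-/- and was 0.73 higher (SE 0.2, adjusted p = 0.00956) in double mutants than in Fcgr2b-/- kidneys.

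Of the 4 carnitine acyltransferases 2 fell. Cpt1a, the outer membrane enzyme that commits long chains to the mitochondrion, had 411, 386, 436 and 514 CPM in WT and 353, 499, 399 and 424 CPM in Fcgr2b-/- kidneys. The groups overlap, and the difference was -0.06 (SE 0.13, adjusted p = 0.697). Its sign turned, to 0.12 with no call, when libraries were scaled to the same total over nuclear genes, which also evens out the differing CPM totals. Cpt2, the inner membrane enzyme that releases the chain to coenzyme A, did not pass either, at -0.37 (SE 0.2, adjusted p = 0.125), with 133 to 197 CPM in WT and 92.7 to 157 CPM in Fcgr2b-/- kidneys. Crat and Crot, which make the carnitine esters of short and medium chains, fell by 0.63 (SE 0.11, adjusted p = 0.000135) and by 0.45 (SE 0.12, adjusted p = 0.00607).

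All 5 acyl-CoA dehydrogenases, which introduce the first double bond, fell. Acadm (minus strand of chromosome 3, 153922356 to 153944632) had 1330, 1630, 1560 and 2050 CPM in WT, 2460, 1610, 1720 and 1340 CPM in Rhbdf2-/-, 309, 542, 276 and 401 CPM in Fcgr2b-/- and 1260, 1100, 1110 and 1290 CPM in double-mutant kidneys. Its Fcgr2b-/- mean was 23.3% of the WT mean and its double-mutant mean 72.6%. The differences were -2.13 (SE 0.21, limma adjusted p = 1.4e-06) for Fcgr2b-/- against WT and 1.68 (SE 0.21, adjusted p = 2.72e-05) for the double mutant against Fcgr2b-/-. Acad11, which handles hydroxylated and very long chains, fell by 1.14 (SE 0.15, adjusted p = 1.86e-05). The short-chain enzyme Acads and the very long-chain enzyme Acadvl both fell by 0.62, with SEs of 0.09 and 0.12. The long-chain enzyme Acadl fell least, by 0.35 (SE 0.13, adjusted p = 0.0311). Members of this one enzyme family thus fell by amounts from 0.35 to 2.13 on the log2 scale.

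The later steps of the mitochondrial cycle fell together by similar amounts. Hadha and Hadhb encode the subunits of the trifunctional protein, which carries out hydration, the second dehydrogenation and thiolysis of long chains. They stand head to head on chromosome 5, Hadha on the minus strand ending at 30155162 and Hadhb on the plus strand starting at 30155247. The whole stretch between their annotated starts is shown because it lies upstream of both subunits' genes. It spans chr5:30155163-30155246 of GRCm38.p6 (RefSeq promoter table, plus strand), holds 84 bases and is 69% G or C. No letters are capitalised in it.
Hadha to Hadhb: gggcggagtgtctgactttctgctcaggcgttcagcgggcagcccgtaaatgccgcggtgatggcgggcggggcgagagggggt
Hadha had 338, 314, 338 and 381 CPM in WT, 202, 221, 174 and 210 CPM in Fcgr2b-/- and 297, 272, 297 and 336 CPM in double-mutant kidneys. Hadhb had 148, 132, 140 and 152 CPM in WT, 73.4, 88.7, 59.7 and 94.5 CPM in Fcgr2b-/- and 129, 112, 128 and 158 CPM in double mutants. Neither gene overlapped between WT and Fcgr2b-/-, and their differences of -0.76 (SE 0.11, adjusted p = 2.76e-05) and -0.87 (SE 0.13, adjusted p = 5.63e-05) lay within 1 SE of each other. Hadh, the dehydrogenase for shorter chains, fell by 0.91 (SE 0.15, adjusted p = 0.000147), and the thiolase gene Acaa2 fell by 0.87 (SE 0.17, adjusted p = 0.000536).

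Unsaturated chains need extra isomerases and a reductase. Decr1, the dienoyl-CoA reductase, fell by 0.62 (SE 0.16, adjusted p = 0.00439), and Ech1, a dienoyl-CoA isomerase, fell by 0.57 (SE 0.17, adjusted p = 0.0101). The enoyl-CoA isomerases did not pass. Eci1 had 106 to 122 CPM in WT and 67.9 to 121 CPM in Fcgr2b-/- kidneys (adjusted p = 0.141). Eci2 was the one member whose mean was higher in Fcgr2b-/-, with 50.8, 48.8, 53.4 and 57.5 CPM in WT and 46.8, 82.7, 53.6 and 68 CPM in Fcgr2b-/- kidneys, a difference of 0.22 (SE 0.14, adjusted p = 0.203). Scaling to the same nuclear total, which also evens out the differing CPM totals, raised the median of all genes to 0.16. Eci2 was then called higher at 0.4. Without Fcgr2b-/- replicate 1 it was called at 0.35.

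The electron transfer flavoprotein passes electrons from the dehydrogenases to the respiratory chain. Its alpha subunit gene Etfa had 448, 401, 454 and 415 CPM in WT and 191, 298, 171 and 267 CPM in Fcgr2b-/- kidneys, with no overlap and a difference of -0.92 (SE 0.15, adjusted p = 0.00013). The beta subunit gene Etfb fell by 0.56 (SE 0.17, adjusted p = 0.0113), with replicate 4 of the Fcgr2b-/- group at 440 CPM inside the WT range of 421 to 447 CPM. Etfdh, the oxidoreductase that takes over the electrons, fell by 0.74 (SE 0.13, adjusted p = 0.000201).

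All 5 members listed as enzymes of peroxisomal beta-oxidation fell, some by little. Other members found in peroxisomes, among them Crot, Eci2 and Pex11a, are described with other groups. Acox3, an oxidase of branched chains, had 137, 123, 137 and 131 CPM in WT and 62.4, 109, 72.1 and 88.4 CPM in Fcgr2b-/- kidneys, a difference of -0.69 (SE 0.14, adjusted p = 0.000681). Ehhadh, the bifunctional hydratase and dehydrogenase, had 723, 794, 769 and 1150 CPM in WT, 207, 701, 420 and 649 CPM in Fcgr2b-/- and, in Rhbdf2-/- kidneys, 2010, 1030, 957 and 670 CPM, and its SE is the largest of the members. Its Fcgr2b-/- difference was -0.92 (SE 0.35, adjusted p = 0.0359). The D-bifunctional enzyme gene Hsd17b4 fell by 0.3 (SE 0.12, adjusted p = 0.0433). The thiolase genes Acaa1a and Acaa1b lie 182582 bases apart on chromosome 9 and fell by 0.29 (SE 0.08, adjusted p = 0.00842) and by 0.83 (SE 0.29, adjusted p = 0.0238). They are near copies: of the 50-base words in Acaa1b transcripts, 30.5% also occur in Acaa1a, so reads of this length may be split between them. Shared words were also frequent for Etfb, at 44.8%, mostly with the overlapping gene Gm45233, and for Hadhb, at 19.7%, mostly with Gm13910, while Acsm1 shared 0% with any other gene. The treatment of reads that fit several genes was not stated in these sources.

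Of the regulators, Ppara, the receptor gene, had 94.5, 70.2, 79.3 and 65.2 CPM in WT and 24, 70.3, 32.7 and 25.5 CPM in Fcgr2b-/- kidneys. Only replicate 2 reached the WT range, and the difference was -1.13 (SE 0.28, adjusted p = 0.00287). Ppargc1a, which encodes PGC-1 alpha, had 133, 113, 130 and 119 CPM in WT, 65, 89.4, 67 and 74.7 CPM in Fcgr2b-/- and 101, 105, 124 and 160 CPM in double-mutant kidneys. The Fcgr2b-/- values lie below all others, with a difference of -0.74 (SE 0.13, adjusted p = 0.000255). Pex11a, which promotes peroxisome division, had 61.1 to 85.9 CPM in WT and 40.9 to 83.2 CPM in Fcgr2b-/- kidneys and did not pass (adjusted p = 0.377).

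**Figure D2:**
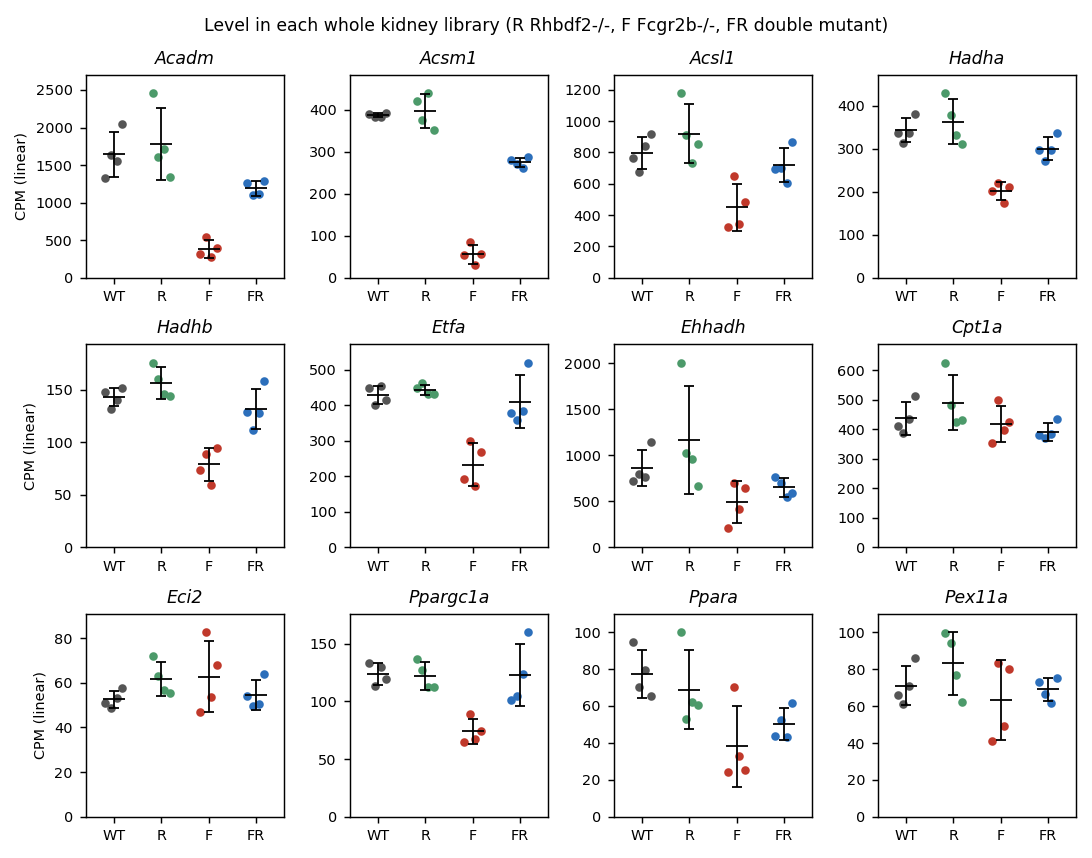
CPM (linear axis from 0) of 12 members in each whole kidney library, with the mean and SD of each genotype; R is Rhbdf2-/-, F is Fcgr2b-/- and FR the double mutant. Acsm1 and Acadm show Fcgr2b-/- libraries far below the rest, while Cpt1a, Eci2 and Pex11a overlap between genotypes.

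The Fcgr2b-/- libraries were not alike. Replicate 2 had the highest value of its group for 25 of the 32 members and replicate 4 for 7, while replicates 1 and 3 had the lowest for 15 and 16. The summed CPM of the members was 5729, 9382, 5419 and 7855 in replicates 1, 2, 3 and 4. The summed CPM of 14 proximal tubule markers had the same order over these libraries, at 6820, 10900, 5570 and 10300, and lay at 26700 to 29300 in WT, between 24100 and 29600 in Rhbdf2-/- kidneys, and between 19400 and 22300 in double mutants. All 14 of these markers fell in Fcgr2b-/- kidneys, with a median difference of -1.35, beside the members' -0.68. Sums of injury markers were 3340 to 3790 CPM in WT and 9860 to 19000 CPM in Fcgr2b-/- kidneys, and those of macrophage markers 289 to 341 CPM and 1050 to 2720 CPM. Fibroblast marker sums were 121 to 180 CPM in WT and 358 to 1010 CPM in Fcgr2b-/- kidneys, and distal nephron sums 9770 to 9900 CPM and 6660 to 8880 CPM. In double mutants the sums were 3360 to 6450 CPM for injury, 450 to 1730 CPM for macrophage, 107 to 396 CPM for fibroblast and 8450 to 11700 CPM for distal nephron markers. No marker was at 0 in any group. The part of these shifts in the fall of the members was not tested, and in whole kidney fewer tubule cells and less RNA per cell cannot be told apart.

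Loss of Rhbdf2 on top of Fcgr2b was accompanied by higher messages of 19 members and lower messages of 0 against Fcgr2b-/- alone, where 22.5% of all genes were higher. The median difference was 0.48, beside 0 for all genes. All 19 were among the 26 that fell in Fcgr2b-/- against WT; the comparisons share the Fcgr2b-/- libraries, so this overlap is not independent. They comprised all 5 acyl-CoA dehydrogenases, all 4 of Hadh, Hadha, Hadhb and Acaa2, the synthetases Acsl1, Acsm1 and Acsm2, Crat and Crot, Decr1 and Ech1, Etfa and Etfdh, and Ppargc1a. For 13 of them every double-mutant library lay above every Fcgr2b-/- library, as for 16.3% of all genes. The authors' deposited table calls 16 of the 19 higher, all but Acsm2, Acadl and Ech1. Ppargc1a was 0.7 higher (SE 0.13, limma adjusted p = 0.000691). Its double-mutant mean was 98.4% of the WT mean, from libraries that spread from 101 to 160 CPM. Etfa was 0.84 higher (SE 0.15, adjusted p = 0.000518), with 377, 357, 384 and 520 CPM in the double mutants. The double-mutant libraries were not alike: replicate 4 had the highest value of its group for 23 of the 32 members. Its injury and macrophage marker sums, 3360 and 450 CPM, were the lowest of that group. Double-mutant means therefore do not stand for a uniform level.

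None of these 5 peroxisomal enzymes (Acox3, Ehhadh, Hsd17b4, Acaa1a and Acaa1b) passed in that comparison. Their differences ran from 0.07 for Hsd17b4 (SE 0.12, adjusted p = 0.683) and 0.07 for Acaa1a (SE 0.08, adjusted p = 0.53) to 0.56 for Acaa1b (SE 0.29, adjusted p = 0.132). Acox3 had 89.4, 94.9, 95.3 and 127 CPM in double mutants, inside or near its Fcgr2b-/- range of 62.4 to 109 CPM and mostly below its WT range of 123 to 137 CPM. Among the members found in peroxisomes but grouped elsewhere, Crot was called higher, by 0.38 (SE 0.12, adjusted p = 0.0233), while Eci2 and Pex11a were not called. Most of the other peroxisomal enzymes, listed below, were called higher in double mutants than in Fcgr2b-/- kidneys, where 22.5% of all genes were. The result for these 5 members therefore does not extend to peroxisomal enzymes in general. Whether these 5 differ from the other members in this comparison was not tested. Ppara, with 43.5, 52.6, 43.3 and 61.8 CPM in double mutants, did not pass at 0.51 (SE 0.28, adjusted p = 0.144), though it did without Fcgr2b-/- replicate 2, at 0.85.

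**Figure D3:**
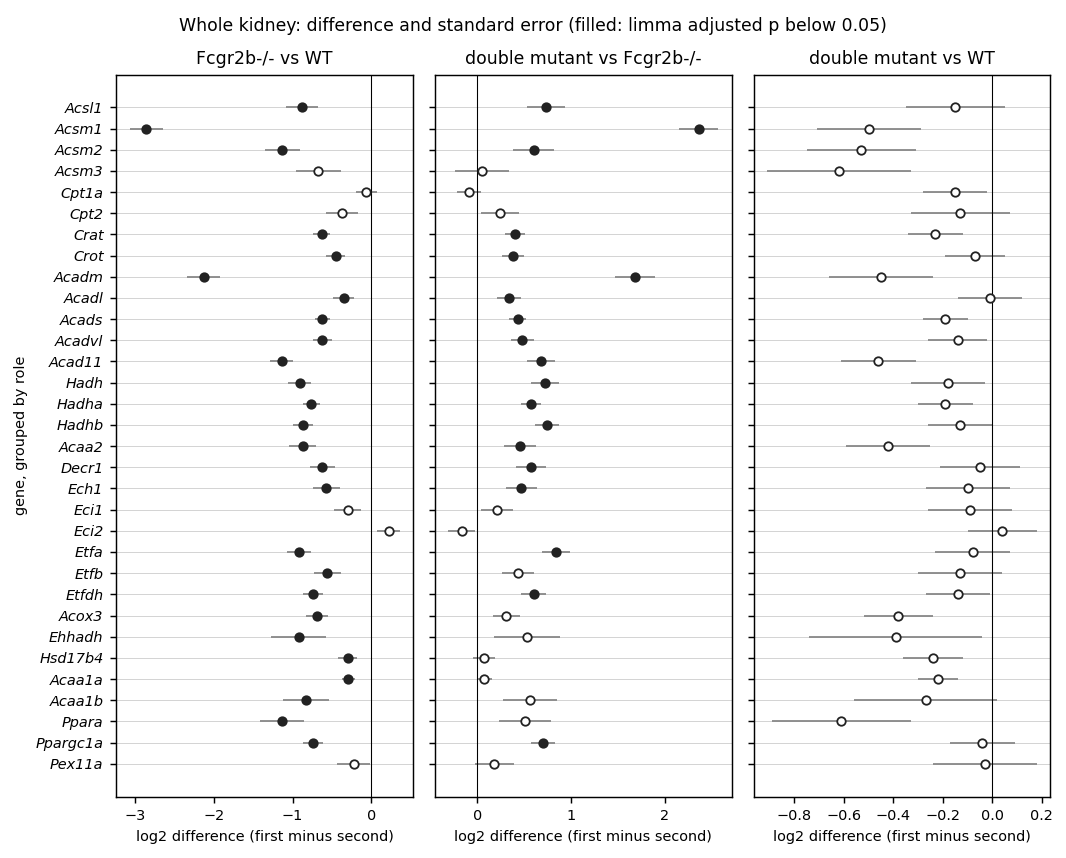
Log2 difference (horizontal axis, first genotype minus second) with its standard error for each of the 32 members in 3 whole kidney comparisons; filled points have a limma adjusted p below 0.05, and the panels have different scales. Filled points lie left of 0 in the first panel and right of 0 in the second, and the third has none.

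Against WT the double mutants had 0 members called in kidney, where 7.29% of all genes were called in either direction; 9 members were lower at an unadjusted p below 0.05, as were 12.6% of all genes. The median was -0.17, and 31 of 32 means lay below WT. For 7 members, Acaa1a, Acad11, Acadm, Acads, Acsm1, Crat and Ppara, every double-mutant library lay below every WT library, and this was so for 11.3% of all genes. Acsm1, at 261 to 287 CPM against 384 to 393 CPM, had a difference of -0.5 (SE 0.21, adjusted p = 0.156). Against Rhbdf2-/- kidneys, again 0 members were called, with 3.5% of all genes called, 11 members lower at an unadjusted p below 0.05 (11.4% of all genes) and a median of -0.26. Against WT and against Rhbdf2-/-, the fit of each pair of groups alone called 4 and 2 members lower, with 8.83% and 3.26% of all genes called in either direction. A fit with weights for library quality called 13 in each, with 31.1% and 30.5% of all genes called. limma-voom on recovered reads called 0 in both, and the authors' deposited table calls 0 against WT.

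Loss of Rhbdf2 alone left 0 members called in kidney, where 0% of all genes were called, 0 members had an unadjusted p below 0.05, and limma-voom and the authors' deposited table also call 0. The median difference was 0.1 and the largest was for Ehhadh, at 0.35 (SE 0.35). The interaction compares the effect of Rhbdf2 loss in Fcgr2b-/- mice with its effect in mice that keep Fcgr2b. It was called for 9 members, all positive, where 13.9% of all genes were called positive. They were Acsm1 at 2.33 (SE 0.29, limma adjusted p = 0.000127), Acadm at 1.58 (SE 0.3, adjusted p = 0.00165), Etfa at 0.79, Acad11 at 0.76, Ppargc1a at 0.73, Hadh at 0.68, Hadhb at 0.61, Etfdh at 0.53 and Hadha at 0.5. The count was 15 without Fcgr2b-/- replicate 2 and 16 with library quality weights, while the share of all genes called in either direction was 27.8% in the fit reported here, 30.8% without that library and 34.7% with the weights.

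Some of these calls were narrow. Against WT, the Fcgr2b-/- call was lost in 10 of 23 alternatives for Hsd17b4 (adjusted p up to 0.312), in 7 for Ehhadh (up to 0.129) and for Acaa1b (up to 0.0721), in 5 for Acadl (up to 0.211) and in 1 for Acaa1a (0.184) and for Etfb (0.055). Leaving out WT replicate 1, 2, 3 or 4, Rhbdf2-/- replicate 2, double-mutant replicate 1 or Fcgr2b-/- replicate 1 or 3 ended at least 1 of the first 4 calls. For the double mutant against Fcgr2b-/-, the calls of Acadl (13 alternatives), Acaa2 (12), Acsm2 (7), Ech1 (6) and Crot (4) were lost in some, with adjusted p up to 0.154, and leaving out 1 library of any of the 4 genotypes could end that of Acadl. For the other 4 of these, double-mutant replicate 4 and Fcgr2b-/- replicate 1 were among the libraries whose removal ended the call. In the interaction, Etfdh was lost in 11 and Hadh in 6, with adjusted p up to 0.0836, each also without Fcgr2b-/- replicate 1 or double-mutant replicate 4. The other calls named for kidney held in each alternative.

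Promoters were searched because these members moved together. Of the 32 members 28 had an entry in the RefSeq promoter table (GRCm38.p6), and the 250 bases before the start were read on both strands. The nuclear receptor half-site AGGTCA, to which PPAR alpha with its partner and the estrogen-related receptors bind as part of longer elements, occurred in 4 members, Acadm, Acadvl, Acsm1 and Cpt1a. That is 14.3% of members with an entry and 14% of all 32851 promoters. The windows below show the half-site in capitals, also where it reads as its reverse complement, with up to 40 bases on either side and 5′ to 3′ on the gene's strand. The start used for Acsm1 is the RefSeq one, which lies inside the gene span that the deposited annotation gives, so its window is within that span. The windows lie at chr3:153944847-153944893 (minus strand) for Acadm, chr11:70015470-70015555 (minus strand) for Acadvl, chr7:119617665-119617750 (plus strand) for Acsm1 and chr19:3323167-3323252 (plus strand) for Cpt1a.
Acadm: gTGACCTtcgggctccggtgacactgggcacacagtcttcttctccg
Acadvl: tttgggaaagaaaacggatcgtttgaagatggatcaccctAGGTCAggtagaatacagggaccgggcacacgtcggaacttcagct
Acsm1: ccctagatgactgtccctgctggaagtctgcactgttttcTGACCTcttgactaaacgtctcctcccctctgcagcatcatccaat
Cpt1a: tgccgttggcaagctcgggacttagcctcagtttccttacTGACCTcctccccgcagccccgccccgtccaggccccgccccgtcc
The set joins the members with the largest change, Acsm1 and Acadm, and one that did not pass, Cpt1a. The direct repeat AGGTCANAGGTCA was found in 0 of the 28 and 0.0335% of all promoters, its looser form AGGNCANAGGNCA in 0 and 0.338%, TCAAGGTCA in 0 and 0.387%, TNAAGGTCA in 0 and 1.14%, the cAMP element TGACGTCA in 0 and 1.55%, and CAAAGTCCA, an HNF4 motif, in 0 and 0.384%. The half-site lies within the first repeat and both forms that end in its letters, and the looser patterns contain the stricter ones. The NRF1 motif was found in 3, Etfb, Etfdh and Ppara, or 10.7%, and in 3.74% of all. A match is only a run of letters, and its absence from this window says nothing about binding elsewhere.

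Other genes of fatty acid metabolism were grouped in 9 lists, some sharing genes, and changed to different degrees in Fcgr2b-/- against WT kidney. In that comparison 30.8% of all genes fell and 29.5% rose. Among other mitochondrial enzymes 16 of 22 measured fell and 3 rose. Pcca, of propionyl-CoA carboxylase, fell by 1.35 (SE 0.12) and the dehydrogenase genes Acad10, Acadsb and Acad12 by 1.5, 1.36 and 1.44; all 4 were higher in double mutants than in Fcgr2b-/- kidneys, by 1.15, 1.29, 1.11 and 1.21. Of 7 ketone body enzymes 6 fell. Oxct1, which activates ketone bodies for use, fell from a mean of 2150 to 623 CPM (difference -1.81, SE 0.13, limma adjusted p = 1.06e-07) and stood at 1850 CPM in double mutants, and Bdh1 and Acat1 fell by 1.56 and 1.29. Of other peroxisomal enzymes 30 of 36 fell and 0 rose, among them Hao2 (-2.2), Baat (-2.32), Ddo (-1.28) and Scp2 (-1.07). In double mutants 24 of the 36 were higher than in Fcgr2b-/- kidneys, where 22.5% of all genes were higher. Of the peroxins, which build the organelle, 12 of 15 fell, with a median of -0.29 over the 15, among them Pex19 (-0.4), Pex6 (-0.8) and Pex13 (-0.45).

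Of 25 measured genes known as PPAR alpha targets but outside the 32, 5 fell and 2 rose in Fcgr2b-/- against WT kidney, with a median of -0.04. Both counts lay below the shares of all genes, of which 30.8% fell and 29.5% rose. Mgll, a lipase, fell by 1.09 (SE 0.11), the fatty acid transporter gene Cd36 by 0.95 (SE 0.14) and Aldh3a2, an aldehyde dehydrogenase, by 0.46 (SE 0.08). Plin2, which coats lipid droplets, rose by 1.01 (SE 0.17, limma adjusted p = 0.000127) and differed by -0.85 between double mutants and Fcgr2b-/- kidneys, being lower in the double mutants. The difference between this list and the members was not tested. Of other regulators 20 of 29 fell and 4 rose; Esrra and Esrrg, which encode estrogen-related receptors, fell by 0.71 and 0.9, the coactivator gene Ncoa1 by 0.49 and Acacb, whose product blocks Cpt1a through malonyl-CoA, by 1.09. In the uptake and binding list 7 of 12 fell and 1 rose, with Lpl, the lipoprotein lipase, down by 1.37 and Fabp3 and Slc27a2 by 0.86 and 1.02. Glycolysis genes were divided, 6 up and 4 down of 19, near or below the shares of all genes. The lactate transporter gene Slc16a3 rose by 1.92 and Pfkp by 0.58, and Pfkm and Pgk1 fell by 0.94 and 0.68. In lipid synthesis and storage 10 of 21 fell and 4 rose, with the elongase gene Elovl6 down by 1.6 and Me1 by 1.11.

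In sorted macrophages the pathway did not move as a block. Of 30 members measured, 4 rose and 5 fell in Fcgr2b-/- against WT, where 24.2% of all genes rose and 28.5% fell, and the median was -0.09, the same as for all genes tested. All 9 had groups that do not overlap, where 27% of all genes lay apart in the higher and 31.5% in the lower direction. Per kilobase the highest members in WT macrophages were Etfb at 111 CPM (SD 29.8) and Ech1 at 99.5 CPM (SD 12.2), n = 3, which did not differ beyond their spread. Kidney and macrophage values were normalized separately and are not compared here.

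Eci2, the enoyl-CoA isomerase that did not pass in kidney, had 22.2, 25.9 and 21.4 CPM in WT, 22.5, 22.8 and 23 CPM in Rhbdf2-/-, 43.5, 48.2 and 57.5 CPM in Fcgr2b-/- and 26.1, 32.1 and 24.5 CPM in double-mutant macrophages. The Fcgr2b-/- libraries stand above the rest, with a difference from WT of 1.06 (SE 0.14, limma adjusted p = 8.93e-05) and from the double mutant of -0.83 as double mutant minus Fcgr2b-/- (SE 0.14, adjusted p = 0.00137). Hadha had 125, 111 and 98 CPM in WT and 162, 163 and 159 CPM in Fcgr2b-/- macrophages, a rise of 0.54 (SE 0.12, adjusted p = 0.00259). Hadhb, its head-to-head neighbour, had 57.1 to 97.1 CPM in WT and 64.7 to 71.2 CPM in Fcgr2b-/- macrophages and did not pass (-0.13, SE 0.17, adjusted p = 0.539). The peroxisomal genes Acox3 and Hsd17b4 rose by 0.46 (SE 0.12, adjusted p = 0.00742) and 0.31 (SE 0.1, adjusted p = 0.0247).

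Ppargc1a had the largest fall, with 58.2, 57.5 and 15.8 CPM in WT, 30.8, 28.1 and 24.2 CPM in Rhbdf2-/-, 5.74, 4.21 and 2.99 CPM in Fcgr2b-/- and 6.52, 20.2 and 4.21 CPM in double-mutant macrophages. Both groups without Fcgr2b are low, though 1 double-mutant library reaches the WT range. That library, replicate 2, also had the largest distal nephron marker sum of its group, 2450 CPM beside 498 and 450 CPM. The Ppargc1a difference was -2.9 for Fcgr2b-/- (SE 0.52, limma adjusted p = 0.000725) and -2.04 for the double mutant against WT (SE 0.52, adjusted p = 0.0219). The part of tubule RNA in these differences was not tested. Acsl1 had 309, 249 and 294 CPM in WT, 165, 101 and 114 CPM in Fcgr2b-/- and 231, 257 and 339 CPM in double-mutant macrophages. It fell by 1.18 (SE 0.19, adjusted p = 0.000376) in Fcgr2b-/-. The double mutants were 1.13 above Fcgr2b-/- (SE 0.19, adjusted p = 0.00148), and its interaction was 1.21 (SE 0.27, adjusted p = 0.0174). Cpt2 fell by 1.37 (SE 0.29, adjusted p = 0.00204) and Etfa by 1.29 (SE 0.31, adjusted p = 0.00403) in Fcgr2b-/-, with 20.7 to 38.5 and 8 to 13.9 CPM for Cpt2 and 95.3 to 141 and 32.7 to 60.4 CPM for Etfa in WT and Fcgr2b-/-. Acsm1 fell by 1.7 (SE 0.53, adjusted p = 0.0181), with 5.05 to 12.6 CPM in WT and 0.724 to 4.94 CPM in Fcgr2b-/-. The authors' deposited table does not call Acsm1. The Acsm1 call was lost without WT replicate 1 or Fcgr2b-/- replicate 2 or 3 and by limma-voom (adjusted p up to 0.0772), and that of Hsd17b4 in 6 alternatives, among them without WT replicate 2 or 3 or Fcgr2b-/- replicate 1 or 3 (up to 0.13).

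**Figure D4:**
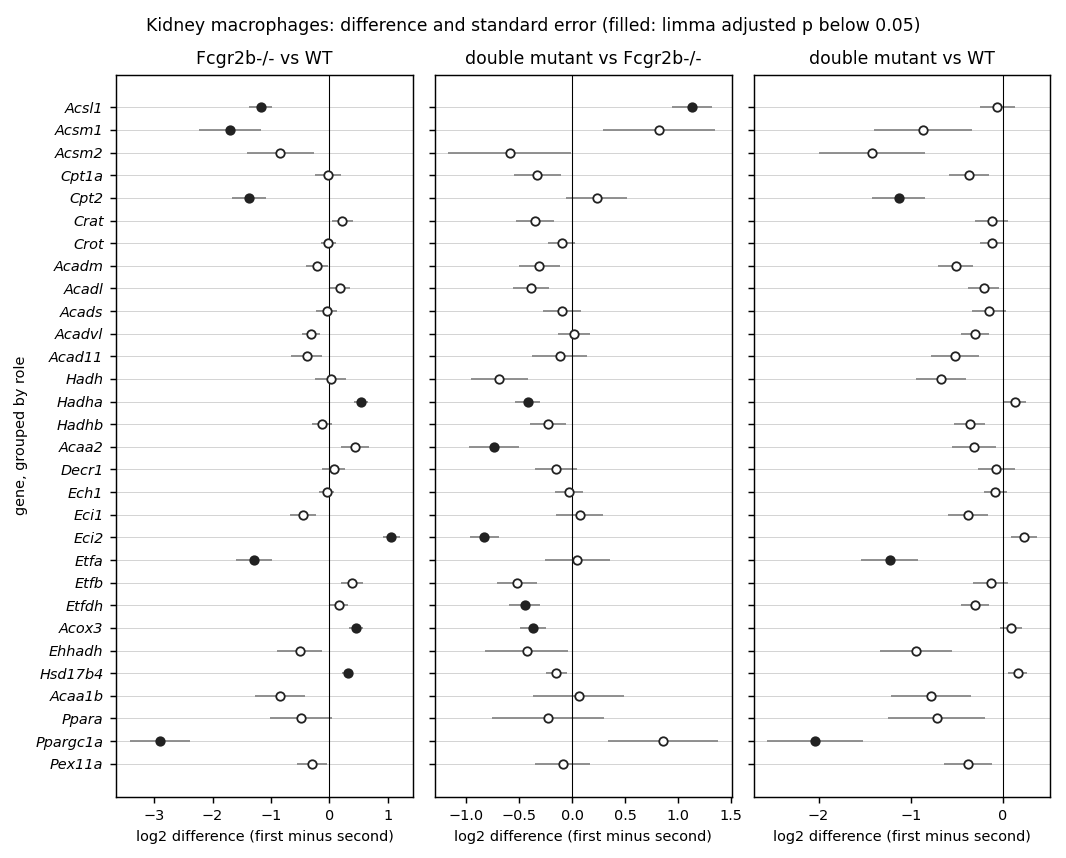
Log2 difference (horizontal axis, first genotype minus second) with its standard error for each of the 30 members measured in sorted kidney macrophages, in 3 comparisons; filled points have a limma adjusted p below 0.05, and the panels have different scales. In the first panel 4 filled points lie right of 0 and 5 left of it, led by Eci2 and Ppargc1a.

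Double-mutant against Fcgr2b-/- macrophages had 1 member higher, Acsl1, where 15.8% of all genes were higher, and 5 lower, Eci2, Acaa2, Hadha, Etfdh and Acox3, where 13.8% were lower. Against WT the double mutants had 3 members lower, where 8.58% of all genes were: Cpt2 at -1.13 (SE 0.29), Etfa at -1.23 (SE 0.31) and Ppargc1a. The calls of Acaa2, Acox3, Etfdh and Hadha in the first of these comparisons were each lost without Fcgr2b-/- replicate 2 or double-mutant replicate 3 (adjusted p up to 0.144). The 3 calls against WT were lost together when WT replicate 1, WT replicate 2 or double-mutant replicate 1 was left out, and 12 members were called without WT replicate 3. Against Rhbdf2-/- 4 were lower, where 9.03% of all genes were: Acsm2 at -2.65 (SE 0.58), Cpt2 at -1.34, Etfa at -1.13 and Acadm at -0.6. The count was 1 without Rhbdf2-/- replicate 1 or 3 or double-mutant replicate 1 and 7 without WT replicate 3. The shares of all genes called in these macrophage fits with a library left out are not given here. Rhbdf2-/- against WT had 0 members called by limma, limma-voom or the authors' deposited table and 0 at an unadjusted p below 0.05, with 0.019% of all genes called. The interaction was positive for Acsl1, where 6.03% of all genes were positive, and negative for Eci2, at -0.81 (SE 0.2, limma adjusted p = 0.0229), where 5.89% were negative; both were lost without Rhbdf2-/- replicate 1 (adjusted p up to 0.0564), and that of Eci2 also without Rhbdf2-/- replicate 2 or double-mutant replicate 3.

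The macrophage libraries also held kidney tubule RNA, and some members moved with it. The summed CPM of 14 proximal tubule markers was 1550, 721 and 451 in WT replicates 1, 2 and 3, between 986 and 1830 in Rhbdf2-/-, between 129 and 710 in Fcgr2b-/-, and between 263 and 457 in double-mutant libraries, and no marker was at 0 in a whole group. WT replicate 1 had the highest value of its group for 27 of the 30 members and WT replicate 3 the lowest for 27. For 8 distal nephron markers the sums were 1680 to 7410 in WT and at most 1060 in Fcgr2b-/- libraries, and all 8 were lower in Fcgr2b-/-. Acsm2, at 133, 62.9 and 25.4 CPM in WT and 189, 117 and 129 CPM in Rhbdf2-/- libraries, and Acsm1 had the same order as the proximal sums over the WT libraries, and so did others, among them Ppargc1a, which fell, and Hadha, which rose in Fcgr2b-/-. Other marker sums differed too. For 12 macrophage markers they were 24900 to 35400 CPM in WT, 28000 to 31600 CPM in Rhbdf2-/-, 48400 to 63700 CPM in Fcgr2b-/- and 40900 to 48400 CPM in double-mutant libraries. For 6 injury markers they were 672 to 1620, 1180 to 1650, 8440 to 10200 and 808 to 1520 CPM in the same order. The part of tubule RNA and of these other shifts in the differences of the members was not tested.

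Around the members, some macrophage genes for lipid handling and glycolysis also changed. In Fcgr2b-/- against WT macrophages 24.2% of all genes rose and 28.5% fell. In the uptake and binding list 5 of 12 rose and 2 fell in that comparison. Lpl rose by 2.34 (SE 0.22, limma adjusted p = 1.3e-05), where it had fallen in kidney, and Plin2 rose by 2.37 (SE 0.24, adjusted p = 1.94e-05). Of 19 glycolysis genes 11 rose and 1 fell, and Pgk1 rose by 0.92 (SE 0.17). In double mutants 10 of the 19 were lower than in Fcgr2b-/- macrophages, where 13.8% of all genes were lower. Among other regulators 2 of 28 rose and 10 fell, with Esrra down by 1.43 (SE 0.16, adjusted p = 3.25e-05) and 0.95 higher in double mutants than in Fcgr2b-/- macrophages. Of the PPAR alpha targets outside the members 4 of 22 rose and 4 fell, and of other peroxisomal enzymes 4 of 32 rose and 9 fell. The counts of both lists were not above the shares of all genes. Of other mitochondrial enzymes 3 of 21 rose and 10 fell. Whether these lists differ from the members was not tested.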

How the data were processed

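Whole kidney and sorted macrophage libraries of 4 genotypes were analysed apart, since the authors normalized each tissue on its own. The deposited values are log2 CPM per gene, made by the authors; builds mm10 and GRCm38 are named per the submitters' processing notes, while the aligner, counter and strand setting were not stated in these sources. The authors' deposited table also holds log2 fold changes, each with a p-value and adjusted p. Members and lists were chosen with earlier results of these data known. limma 3.58.1 (R 4.3.3) with a trend was fitted to log2(CPM+1) over the 4 genotypes of a tissue, with Benjamini-Hochberg adjustment over all its genes and a threshold of 0.05; the pseudocount of 1 shrinks fold changes of low genes. All 1669 kidney and 2518 macrophage values checked below 1 CPM were whole multiples of 1 read (100%, tolerance 0.1), so reads were recovered and tested with limma-voom, chosen after seeing the data. The scripts were tested on simulated data. All 32 members were named with values, and of each pathway list up to 4 called genes of smallest p in Fcgr2b-/- against WT kidney. Alternatives were another pseudocount, none, a filter at a mean of 1 CPM, 2-group fits, quality weights, scaling to nuclear genes and leaving out each library. Sequences came from RefSeq (GRCm38.p6) and transcript overlaps from GENCODE M21. Titles of double-mutant libraries name Rhbdf2 only, and the genotype label was followed.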

Additional observations from a re-analysis of the deposited data

Results flagged for a closer look

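Of 128 groups of 4 kidney libraries, 5 held 1 library far from the other 3 by Dixon's ratio, where chance gives about 1 in 20. Acad11 had 57.8 CPM in Fcgr2b-/- replicate 2 and 30.6 to 34.4 CPM in the others, and Acsm3 had 2.88 CPM in Fcgr2b-/- replicate 4 and 1.1 to 1.4 CPM in the others. In double-mutant replicate 4 Etfa had 520 CPM beside 357 to 384 CPM, and Acox3 had 127 CPM beside 89.4 to 95.3 CPM. Ehhadh had 1150 CPM in WT replicate 4 and 723 to 794 CPM in the other WT kidneys.

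The effect of Rhbdf2 loss differed between mice without and with Fcgr2b, by limma's interaction term, for 9 members in kidney. The differences were 2.33 for Acsm1, 1.58 for Acadm, 0.79 for Etfa, 0.76 for Acad11, 0.73 for Ppargc1a, 0.68 for Hadh, 0.61 for Hadhb, 0.53 for Etfdh and 0.5 for Hadha on the log2 scale. In macrophages they were 1.21 for Acsl1 and -0.81 for Eci2.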

How the results depend on the processing

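No member changed direction past the threshold under any alternative run. Quality weights took a gene-by-gene form, chosen after the default failed to converge. They called 13 members in double mutant against WT kidney, 13 against Rhbdf2-/- and 16 in the kidney interaction. The shares of all genes called there were 31.1%, 30.5% and 34.7%. In macrophages the weights called 15 members in Fcgr2b-/- and 11 in the double mutant against WT. The shares of all genes are not given for these, so they are not read as particular to the members. Fits of the 2 groups alone called 4 and 2 members in double mutant against WT and against Rhbdf2-/- kidney. Scaling to nuclear genes moved the median of all genes from -0.01 to 0.16 in Fcgr2b-/- against WT kidney and called 22 members, 21 of them lower. This setting gives every library the same nuclear total, so it also removes differences in the total of the deposited CPM. Mitochondrial genes took 10.4% to 11.8% of CPM in WT and 5.87% to 14.5% in Fcgr2b-/- kidneys. The part of each in the shift was not tested. Leaving out 1 library gave, in kidney, 22 to 27 calls for Fcgr2b-/- against WT, 14 to 22 for double mutant against Fcgr2b-/-, 0 to 2 for it against WT and 0 to 2 against Rhbdf2-/-, and 7 to 15 for the interaction. In macrophages the ranges were 7 to 13, 2 to 8, 0 to 12, 1 to 7 and 0 to 3 in the same order. Rhbdf2-/- against WT gave 0 in both tissues. The share of all genes called moved too: for Fcgr2b-/- against WT kidney it was 60.3% in the main fit and 53.7% without WT replicate 1. These ranges are therefore not a result about the members alone. The causes were not tested. The planned edgeR and DESeq2 alternatives were not run because the deposited unit is log2 CPM. A replicate block by the letters a and b, possible only for Rhbdf2-/- against WT macrophages, called 0 members; kidney libraries share no replicate numbers, so no pairing was possible there. Few reads limit Acsm3 in kidney and Ppara, Acaa1b and Acsm1 in macrophages.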
